A study of Mus musculus with 15 samples.

Results

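The genes described here are those of the proteasome and of the ubiquitin-conjugating (E2) enzymes, chosen by symbol alone: every row whose gene name starts with Psm, a letter from a to g and a digit, or with Ube2. Of the 8446 rows of the table, 79 matched. They comprise 14 constitutive genes of the 20S core, 3 immunoproteasome genes, 17 genes of the 19S regulatory particle, 13 activator, inhibitor and assembly genes and 30 E2 genes. The remaining 2 matched by letters only: Psmc3ip, a meiotic recombination cofactor, and Ube2d4, annotated as a processed pseudogene. Psma8, Psmb11 and 9 listed E2 genes, Ube2t and Ube2u among them, were not analysed here. Psmc3ip reached 1 FPKM in 5 cells, with 5.98 in cell 3 as its highest log2 value, and Ube2d4 in 3, with 3.22 in cell 4.

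The values come from 15 single Tomato+ cells of inguinal white fat, numbered 1 to 15, which form 1 group. The adult C57BL/6 mice carried a Cre recombinase that tamoxifen activates under Prrx1 control together with a Tomato reporter, and all received tamoxifen at 2 mg per 30 g of body weight daily for 3 days. Tissue was digested with collagenase at 37 °C, sorted for Tomato, and cells were picked singly. No animal is named in the labels, so how many mice they came from is unknown, and the cells count as 1 sample and allow no p-value. Prrx1 drives the Cre, so a Tomato+ cell is one in which that promoter was active at treatment or in a precursor then.

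Proteins marked with ubiquitin are broken down by the 26S proteasome. Its 20S core is a barrel of alpha and beta rings with the cutting sites inside, and its 19S cap recognises, unfolds and de-ubiquitinates the substrate. E2 enzymes receive activated ubiquitin from an E1 enzyme and, with an E3 ligase, pass it to the substrate. In cells that meet interferon, 3 catalytic beta subunits can be exchanged for immunoproteasome subunits, and in mitosis the anaphase-promoting complex uses its own E2 enzymes.

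Values are log2(FPKM + 1), the unit in which the authors' table was read. FPKM is a read number per length of transcript, and a gene was counted as detected in a cell at 1 FPKM or more. The authors' values share 1 distribution over the cells, so that each cell has 4369 rows at 1 FPKM or more, and a value is in effect a rank. Read depth is unknown. Between 930 and 1974 rows stood at a cell's lowest value. Of the stromal markers each of the 9 with a row reached 1 FPKM in at least 8 cells, as did 46.8% of all rows. Cell 13 stood apart. It was highest in all 7 analysed mitosis markers (list mean 9.60, and 0.00194 to 1.91 in the other 14 cells), its stromal mean was 5.07 (6.36 to 9.75 in the others), and its mural mean was 5.83 (0.386 to 8.72 in the others, the top being cell 5). The mean of the 2 endothelial markers with a row was 5.48 (0 to 3.99 in the others). It rests on Esam at 10.90, since Tek was at 0.06 in cell 13. Single markers went against the mean of their own list. Vim (12.02) and Pdgfrb (7.66), listed here as stromal, were highest in cell 13, and Acta2, listed as mural, was at 0.45 there.

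**Figure D1:**
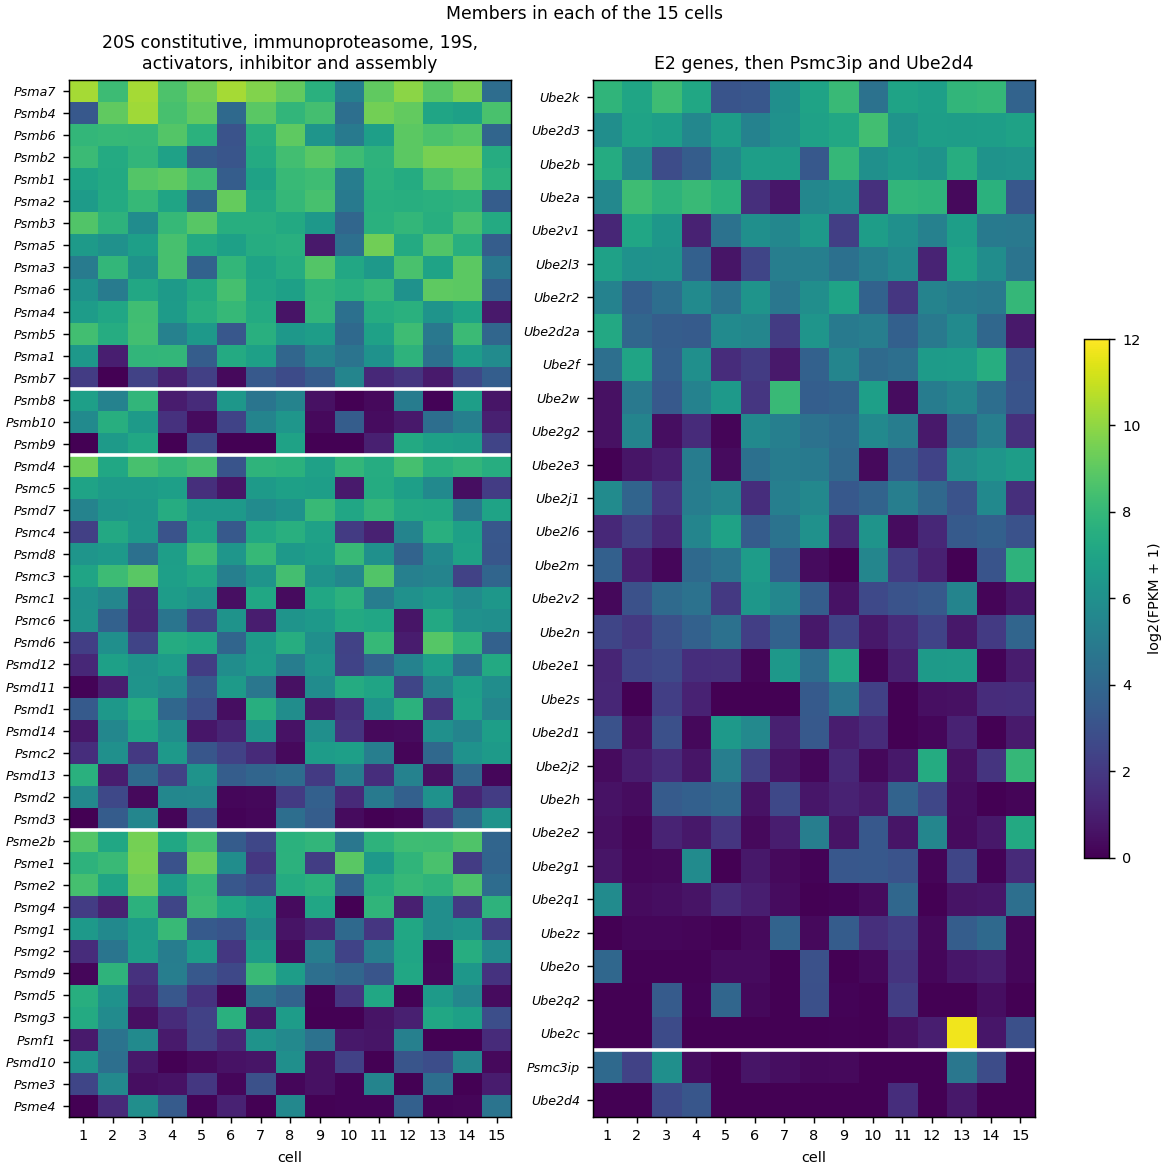
Heat map of 78 of the 79 genes (rows, sorted by median within each group, white lines between groups) in the 15 cells (columns), as log2(FPKM + 1), colour scale 0 to 12. The 20S rows are bright in most cells and many of them are dimmer in cells 10 and 15. The single brightest E2 square is Ube2c in cell 13.

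The constitutive 20S core was expressed broadly and at high level. Of its 14 genes, 11 were detected in all 15 cells, against 12.1% of all rows, and the other 3 in at least 12 cells. The median of the gene medians was 7.41, beside 0.79 over all rows. The exception was Psmb7, the trypsin-like catalytic subunit, whose median was 2.25.

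Among the alpha subunits, which form the outer rings and the gate, Psma7 stood highest, from 4.27 in cell 15 to 10.36 in cell 1, with a median of 9.12. Psma2 ranged from 3.55 in cell 15 to 9.16 in cell 6, with a median of 7.54. Most cells lay near or above 7 for both genes, while cells 10 and 15 lay below 6, as did cell 5 for Psma2 (3.86). Psma5 spanned the widest range of the core, from 0.82 in cell 9 over a median of 7.27 to 9.38 in cell 11. Psma4 was below 1 FPKM in cell 8 (0.65) and cell 15 (0.81), with a median of 7.12 and a highest value of 8.30. So Psma4, at 4.43 or more in 13 cells, was under the detection threshold in the other 2. Psma3 and Psma6 had medians of 7.19 and 7.18, and Psma1 was the lowest alpha gene at 6.11, with 1.00 in cell 2 and 7.95 in cell 4.

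Among the beta subunits, Psmb4 had the highest median, 8.49, with 3.31 in cell 1 and 10.30 in cell 3. Psmb2 had a median of 7.88 (3.18 to 9.56), Psmb1 of 7.73 (3.55 to 9.04) and Psmb3 of 7.54 (3.97 to 8.87). These subunits are structural and hold no active site. The caspase-like subunit Psmb6 ranged from 3.08 in cell 6 to 9.01 in cell 8, with a median of 7.94, and the chymotrypsin-like subunit Psmb5 from 3.24 in cell 6 to 8.39 in cell 1, with a median of 6.67. Both were detected in all 15 cells. Psmb7 was detected in 12 cells, stood at 0 in cell 2 and had its highest value, 5.45, in cell 10, where most other core genes were low. Its longest annotated transcript (2849 nt) is longer than the median of 1220 nt for the constitutive core. Psma2 (2911 nt) and Psma3 (2846 nt) are of similar length and had medians of 7.54 and 7.19. FPKM divides by length although the library kit reads the 3′ end. Levels of genes with long transcripts may thus be understated, which was not tested for Psmb7. An exon of Psmb7 also overlaps Nek6 on the other strand.

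Many core genes were low in cell 10. In cell 15 the low core genes were mainly alpha genes, and in cell 6 they were beta genes only. The median over the 14 genes was 4.95 in cell 10, and cell 15 had 4.11, whereas the other 13 cells had medians of 6.62 to 8.33. Taking the core genes whose median over the other cells was 6 or more, 9 of 13 were lower by 2 or more in cell 10, where 32.6% of all rows at that level were. In cell 15 it was 8 of 13 (31.7% of such rows), made up of 6 of 7 alpha genes and 2 of 6 beta genes. In cell 6 it was 5 of 12 (27.3% of rows), made up of 5 of 6 beta genes and 0 of 6 alpha genes. In cell 5 it was 4 of 13, close to the 29.9% of rows there. In the other 11 cells between 0 and 2 core genes were lower. The shares of rows there, in cells 1, 2, 3, 4, 7, 8, 9, 11, 12, 13 and 14, were 17.7%, 9.61%, 14.9%, 15.6%, 12.5%, 10.7%, 17.3%, 15.4%, 19.5%, 28.3% and 14%. Other groups had low genes in these cells too. Of the 19S genes at that level, 4 of 10 were lower by 2 or more in cell 10, 5 of 9 in cell 15, 5 of 9 in cell 6 and 3 of 8 in cell 5, and of the E2 genes 2 of 5 in each of cells 10, 15 and 6 and 2 of 4 in cell 5. The core genes were seldom lost: in cell 10 all 14 were detected, 11 of them between 3.97 and 5.45, and in cell 15 13 were. Not low were, among others, Psmb2 (8.26), Psma6 (7.58) and Psma3 (7.19) in cell 10, and Psmb4 (8.58), Psmb1 (7.71) and Psmb2 (7.41) in cell 15.

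Other measures were set beside these counts. Pomp, the chaperone that completes assembly of the core, is not counted among the 79. Its lowest values were 4.71 (cell 10) and 3.78 (cell 15), and it had at least 7.43 elsewhere, with 7.43 in cell 6 and 9.21 in cell 5. Other cofactors detected in every cell did not share this pattern. In cells 10 and 15 Shfm1 stood at 8.81 and 6.41 (median 7.83), Adrm1 at 4.38 and 6.36 (6.41) and Vcp at 6.05 and 4.42 (4.82). The Spearman correlation of value with transcript length over the detected rows describes each library. It was weakest in cell 10 (−0.101), cell 15 (−0.125), cell 6 (−0.134) and cell 5 (−0.203), beside −0.251 to −0.410 elsewhere. The core genes are short, with median lengths of 1239 nt (alpha) and 1183 nt (beta), beside 3264 nt over all rows. Rows with a median of 6 or more in the other cells and a longest transcript under 2000 nt were also counted. Of these, 34.6% were lower by 2 or more in cell 10, 31.9% in cell 15 and 27% in cell 6. Without the limit on length the shares were 32.6%, 31.7% and 27.3%. The part of the libraries in the low core values was not tested.

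**Figure D2:**
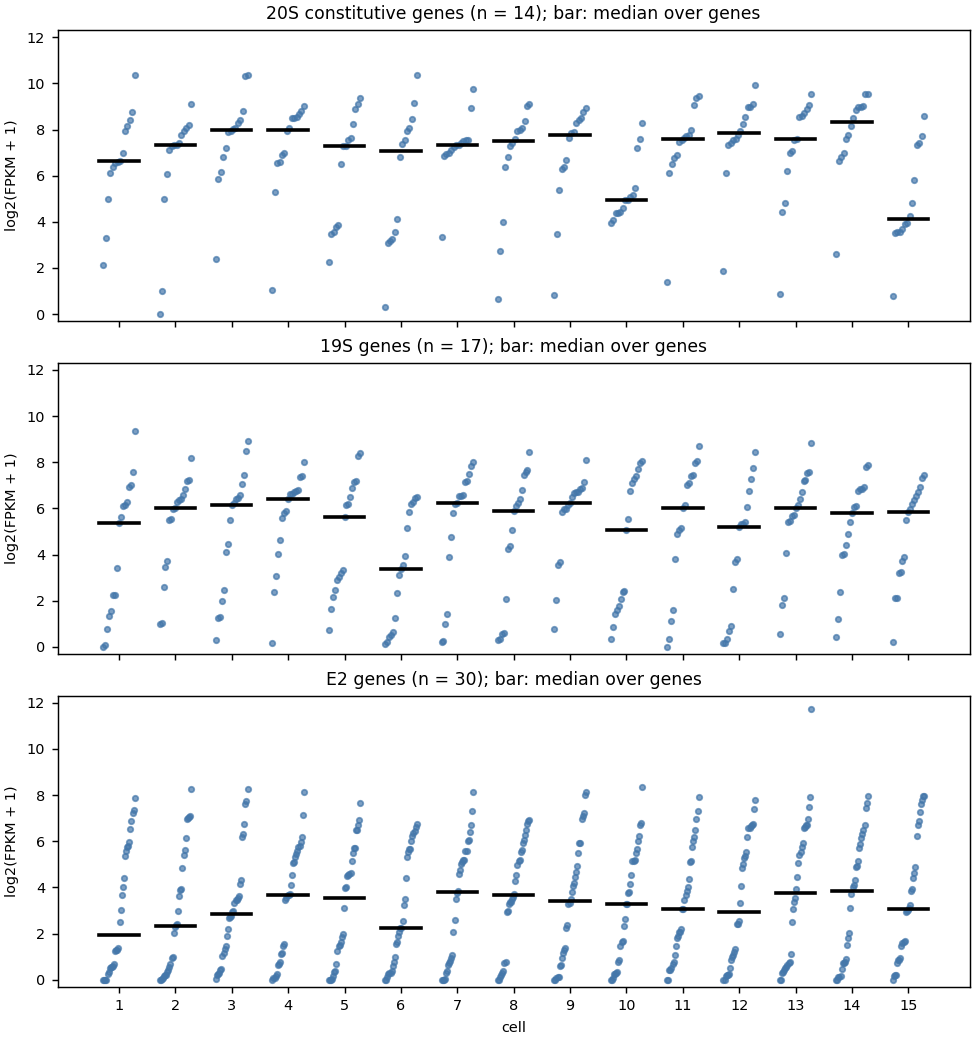
Values of the 14 constitutive 20S, 17 19S and 30 E2 genes (1 point per gene) in each cell, as log2(FPKM + 1), sorted within the cell, with a bar at the median over genes. The 20S median lies at 4.95 in cell 10 and 4.11 in cell 15 and at 6.62 or more in the other cells, while the lowest 19S median is that of cell 6 (3.37).

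From cell to cell the core genes went together weakly. The median pairwise Spearman correlation over the 15 cells was 0.127 for the 14 genes, beside 0.00357 for the 3949 rows detected in 8 or more cells. It was 0.0523 without cells 10 and 15, a value that leaves out the cells with the weak length relation and was computed after seeing the data. For 17 19S genes it was −0.00714, for 21 E2 genes −0.00625, and between core and 19S genes 0.0161, all near the value for all rows. Core and cap genes thus showed little joint variation over these cells.

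The immunoproteasome genes were high in some cells and near 0 in others. Psmb8 and Psmb9 were each detected in 9 of 15 cells (60.0%, exact 95% interval 32.3% to 83.7%) and Psmb10 in 11. Psmb8 and Psmb9 lie near each other on chromosome 17 (34197721 to 34201454 on the plus strand and 34181987 to 34187764 on the minus strand, GRCm38), and Psmb10 on chromosome 8. Psmb8, which replaces Psmb5, ranged from 0.00 in cell 10 to 7.90 in cell 3, with a median of 4.67. Psmb9, which replaces Psmb6, was at its cells' lowest value in 6 cells and between 6.56 and 7.29 in cells 2, 3, 8, 12, 13 and 14. The other 3 cells had 1.07, 2.47 and 2.58. Psmb10, which replaces Psmb7, ranged from 0.31 in cell 9 to 7.53 in cell 2, with a median of 3.55.

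In each cell 40.5% of all rows reached 5 FPKM. Cells 2, 3, 8 and 14 had all 3 genes at that level, with means of 6.46, 7.19, 6.19 and 6.20. Cells 4, 5, 9, 11 and 15 had none at that level, with means from 0.278 to 1.47. The other 6 cells had 1 or 2. The median pairwise correlation of the 3 genes was 0.349, which rests on 3 pairs of genes.

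Set against its constitutive counterpart in the same cell, Psmb9 was lower than Psmb6 in all 15 cells, with a median difference of −3.08 and the smallest, −0.88, in cell 3. Psmb8 was higher than Psmb5 in cell 6 only (6.33 and 3.24), and the median difference over all cells was −3.22. For the trypsin-like site the order differed: Psmb10 was higher than Psmb7 in 9 of 15 cells, with a median difference of 2.08. These are differences of log2(FPKM + 1) values between genes of different length.

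**Figure D3:**
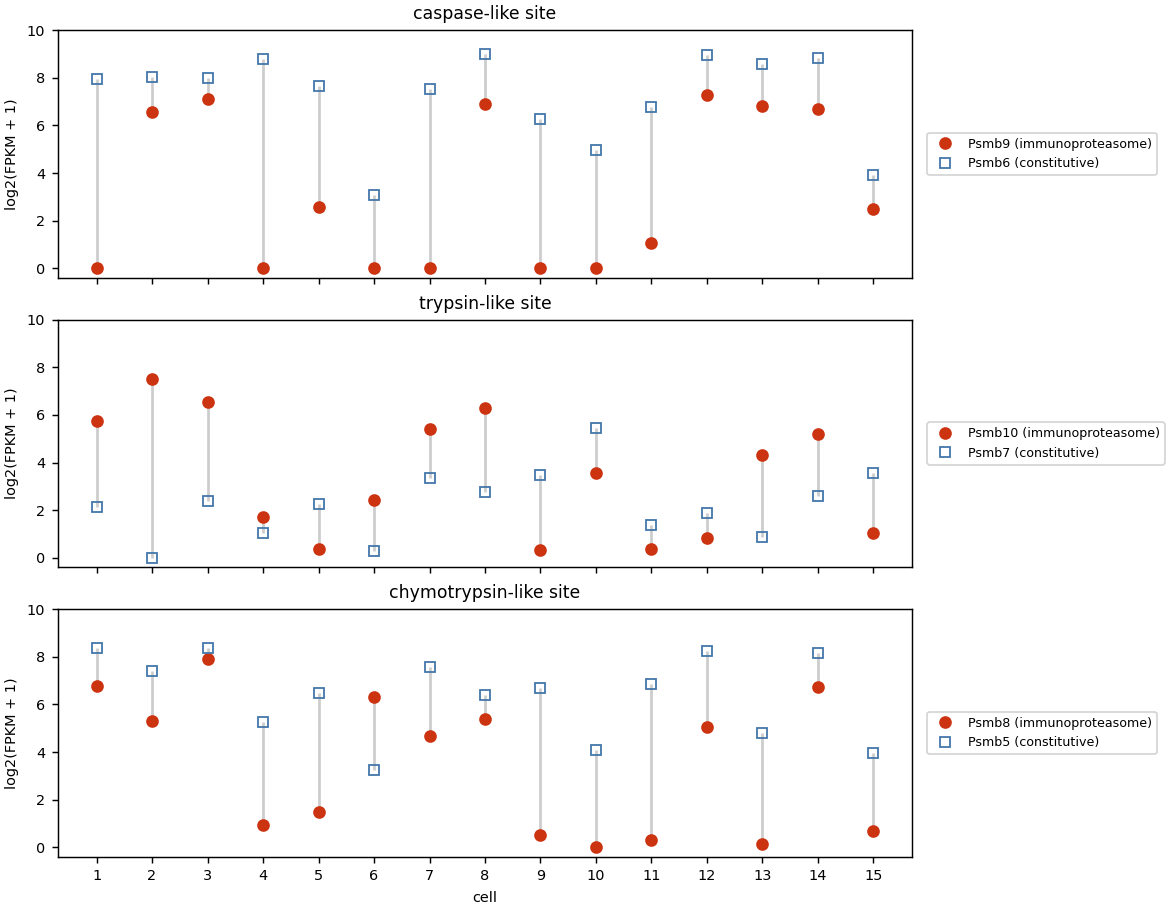
Each catalytic site of the core in the 15 cells, with the immunoproteasome subunit (filled circles) and its constitutive counterpart (open squares), as log2(FPKM + 1). Psmb9 lies below Psmb6 in every cell, Psmb8 lies above Psmb5 in cell 6, and Psmb10 lies above Psmb7 in 9 cells.

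Genes of antigen processing and interferon response, as a list, were near the level of all rows. Of 14 listed genes 11 had a row, B2m and Calr reached 1 FPKM in every cell (12.1% of all rows did) and 6 in at least 8 cells (46.8%), and the median of gene medians was 1.03, beside 0.79 over all rows. B2m, the light chain of class I molecules, ranged from 10.29 to 13.69. Tap1, a peptide transporter gene that overlaps Psmb9 on the opposite strand, was detected in cell 9 alone (4.35), where Psmb9 was at its lowest. Irf1, a factor that acts on these promoters after interferon, was highest in cell 9 (8.69). In cell 9, Psmb8, Psmb9 and Psmb10 were all below 1 FPKM.

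The genes of the 19S cap were detected widely but with gaps. Of 17 genes 6 were detected in all 15 cells (12.1% of all rows were), and each in at least 8 cells, as were 46.8% of all rows. The median of the gene medians was 5.96. Psmd4, a ubiquitin receptor of the cap, was highest, from 3.13 in cell 6 to 9.37 in cell 1, with a median of 7.82. Psmd7, which pairs with the de-ubiquitinase, was the steadiest, from 4.87 in cell 14 to 8.11 in cell 9. Psmd8, a lid subunit, had a median of 6.42 (3.22 to 8.29).

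The 6 ATPase genes, whose ring unfolds substrates, had medians between 4.08 (Psmc2) and 6.59 (Psmc5). Psmc3 and Psmc4 were detected in all cells, Psmc3 with 2.37 in cell 14 and 8.91 in cell 3, and Psmc4 with 1.11 in cell 11 and 7.58 in cell 13. Psmc1 was the ATPase gene with the widest range, from 0.36 in cell 8 over a median of 6.11 to 7.73 in cell 10. Psmc5 was near 6.6 in most cells but low in 5: 0.44 (cell 14), 0.67 (cell 6), 0.86 (cell 10), 1.64 (cell 5) and 2.13 (cell 15). The subunits form 1 hexamer with each gene product present once. No cell had all 6 genes below 5, and in cell 9 all 6 stood at 6.17 or more.

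Among the non-ATPase genes the scaffold subunit Psmd1 and the lid subunits Psmd6, Psmd11 and Psmd13 had the widest ranges. Psmd6 ranged from 0.91 in cell 12 to 8.83 in cell 13, with a median of 5.96, and Psmd13 from 0.20 in cell 15 to 7.60 in cell 1, with a median of 3.89. Psmd1 ranged from 0.43 to 7.73 with a median of 5.51, and Psmd11 from 0.10 to 7.39 with a median of 5.78. Psmd14, the de-ubiquitinase that removes the chain before entry, was detected in 10 cells, with a median of 5.40 and a highest value of 7.05 in cell 3. The lowest by median were Psmd3 (2.14, detected in 8 cells), Psmd2 (2.61, a scaffold that binds ubiquitin shuttles) and Psmd13. Cell 6 had the lowest 19S median, 3.37, while those of the other cells lay between 5.09 and 6.42, and 12 of 17 genes were detected there, as in cell 12.

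The interferon-inducible activators Psme1 and Psme2, which form a ring that opens the core, were detected in all cells. Psme1 ranged from 1.96 in cell 7 to 9.58 in cell 3, with a median of 7.72, and Psme2 from 2.75 in cell 7 to 9.34 in cell 3, with a median of 7.54. Psme2b is a retrogene of Psme2, and its values followed those of Psme2 with a median absolute difference of 0.240 and a Spearman correlation of 0.989 over the 15 cells. Psme1 and Psme2 went apart in some cells: Psme1 stood at 2.16 in cell 9 and 2.12 in cell 14, where Psme2 stood at 7.68 and 8.67. Reads of Psme2 and its copy may have been split or shared, so their separate values are uncertain. The nuclear activator Psme3 was detected in 6 cells (highest 5.64 in cell 2), Psme4, an activator known from sperm and DNA repair, in 7 (highest 5.93 in cell 3), and the regulator Psmf1, named as an inhibitor, in 9 (highest 6.15 in cell 7).

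Assembly genes were less even. Psmg1, Psmg2 and Psmg4, chaperones of the alpha ring, had medians of 5.67, 5.10 and 5.94, and Psmg3 of 2.32. Psmg3 was at 0.73 or less in 5 cells and between 5.80 and 7.61 in cells 1, 2, 6, 8, 13 and 14. Psmg4 reached 8.18 in cell 5 and was at 0.00 in cell 10. Of the chaperones of the 19S base, Psmd9 was detected in 13 cells (median 3.98), Psmd5 in 11 (3.28) and Psmd10 in 7 (0.75). Of these 13 activator, inhibitor and assembly genes 3 were detected in all cells, where 12.1% of all rows were. They were Psme1, Psme2 and Psme2b, whose reads may be shared with Psme2.

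The E2 genes had the lowest levels of the main groups. Of 30, 7 were detected in all 15 cells (12.1% of all rows were). In 8 or more cells 21 were detected, as were 46.8% of all rows, and 9 in fewer. The median of the gene medians was 3.24, beside 0.79 over all rows. Their transcripts are long, with a median of 3469.5 nt. With the length multiplied back the order of the core, 19S and E2 genes remained. It gave 6.06 for the 17 genes of the core including the immunoproteasome, 5.32 for the 19S genes and 2.93 for the E2 genes. The deposited values gave 7.19, 5.96 and 3.24. The immunoproteasome genes alone (3.55 as deposited) and the activator, inhibitor and assembly genes (3.98) were not recomputed in this way.

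Broad E2 genes were led by Ube2k, which builds ubiquitin chains, with a median of 6.97 (3.10 in cell 5 to 8.25 in cell 3). Ube2d3, which works with many E3 ligases, had a median of 6.72 and the smallest range of the 79 genes, from 5.33 in cell 6 to 8.35 in cell 10. Ube2d3 was not low in cell 10, its highest, nor in cell 15 (6.89). Ube2b, of the Rad6 type, had a median of 6.17 (2.77 to 8.01). Its close paralogue Ube2a had a median of 5.93 and reached 8.25 in cell 2, but stood at 0.29 in cell 13 and 0.75 in cell 7. In these 2 cells Ube2b was at 7.47 and 6.69. Ube2r2, a partner of cullin ligases, and Ube2j1, an enzyme of the endoplasmic reticulum, were also detected in all cells, with medians of 5.05 and 4.04. Ube2l3, a partner of the RING-between-RING ligases, was detected in 14 cells with a median of 5.19, and Ube2d2a in 14 with 4.84.

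The lowest E2 genes by median were Ube2c, Ube2q2 (0.09) and Ube2o (0.27). Several genes were low in most cells and high in a few. Ube2j2, another enzyme of the endoplasmic reticulum, had a median of 0.96 but 7.97 in cell 15, 7.40 in cell 12 and 5.15 in cell 5. Ube2e2 had a median of 0.78 but 7.28 in cell 15, 5.52 in cell 12 and 5.15 in cell 8. Ube2w, which modifies the amino terminus of proteins, was detected in 13 cells and reached 8.13 in cell 7. Ube2o, Ube2q1 and Ube2q2 were detected in 3, 4 and 4 cells, with highest values of 4.02, 5.77 and 3.98. The remaining genes Ube2d1, Ube2g1, Ube2h and Ube2z had medians of 1.06 or less and were detected in 6 to 8 cells, and Ube2e1, Ube2e3 and Ube2g2 in 11 each, with medians of 1.63, 4.08 and 4.18.

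Ube2n joins ubiquitins into chains that serve signalling and needs a partner that lacks the catalytic cysteine, Ube2v1 or Ube2v2. Ube2n was low, with a median of 2.39 and a highest value of 4.48 in cell 5. Ube2v1 was detected in all cells with a median of 5.57 (1.16 to 7.09), and Ube2v2 in 11 with a median of 3.08 (0.17 to 6.34). Cell 1 was low in both partners (1.28 and 0.24). Ube2v1 shares exon sequence with Gm20431 on the same strand, so its value may include reads of that gene.

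Some E2 enzymes serve modifiers other than ubiquitin. The NEDD8 enzymes Ube2f and Ube2m were detected in 14 and 10 cells, with medians of 4.36 and 3.10, and were highest in cells 14 (7.46) and 15 (7.77). In cell 13 Ube2f was at 6.62 and Ube2m at 0, so that the 2 enzymes for the same modifier went apart. Ube2l6, the enzyme for the interferon-induced modifier Isg15, had a median of 3.39 and was highest in cell 5 (6.90). Uba7, the E1 enzyme of the same pathway, was also highest in cell 5 (9.43), while Isg15 stood at 0.97 there. Ube2l6 and Uba7 were set side by side after their values were seen, with a Spearman correlation of 0.566 over the 15 cells.

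Ube2c, which starts ubiquitin chains for the anaphase-promoting complex, stood at 11.75 in cell 13. It was detected in 4 of 15 cells (26.7%, exact 95% interval 7.79% to 55.1%). The next values were 2.94 in cell 15, 2.73 in cell 3 and 1.00 in cell 12, and 11 cells were below 1 FPKM. The value in cell 13 was the highest of any of the 79 genes in any cell, and 2 of all 8446 rows, Ube2c among them, exceeded the median of the other cells there by as much. The gene lies on chromosome 2 from 164769898 to 164778822 on the plus strand, and an exon overlaps Tnnc2 on the other strand.

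The partners of Ube2c did not all share its pattern. Ube2s, which lengthens the chains that Ube2c starts, was detected in 8 cells, stood at 0.53 in cell 13 and was highest in cell 9 (4.67). An exon of Ube2s overlaps Rpl28 on the other strand. Cdc20, the activator of the complex, stood at 9.73 in cell 13 and at most at 4.32 elsewhere, and Cdk1, the mitotic kinase, at 11.34 there and at most at 3.42 elsewhere. Of the 15 analysed genes of the complex and its activator, 7 were higher by 2 or more in cell 13 than the median of the other 14 cells and 3 were lower, and over all rows 22.4% were higher and 12% lower. Anapc10 (6.45) and Anapc15 (6.84) were highest in cell 13, while Anapc11, the subunit that binds the E2 enzyme, was at its lowest there (3.20).

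**Figure D4:**
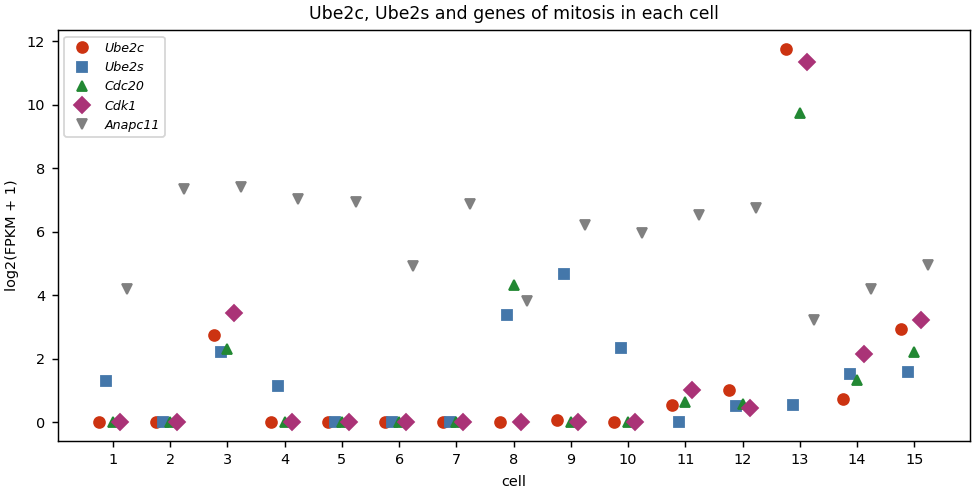
Ube2c, Ube2s, Cdc20, Cdk1 and Anapc11 in each of the 15 cells, as log2(FPKM + 1), with 1 symbol per gene. In cell 13, Ube2c (11.75), Cdk1 (11.34) and Cdc20 (9.73) are far above all other cells, Ube2s (0.53) and Anapc11 (3.20) are not.

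Promoter sequences of Ube2c, Ube2s and Cdc20 are shown because Ube2c and Cdc20 were high in the same cell and Ube2s was not. Each runs 5′ to 3′ over 300 bases, 250 before and 50 after the start, from RefSeq on GRCm38.p6. Capitals mark TTTGAA, the cell cycle homology region known from genes of mitosis, and CCAAT, the box that the factor NF-Y binds, on either strand (a match on the other strand reads TTCAAA or ATTGG).
Ube2c, plus strand, chr2:164769679-164769978: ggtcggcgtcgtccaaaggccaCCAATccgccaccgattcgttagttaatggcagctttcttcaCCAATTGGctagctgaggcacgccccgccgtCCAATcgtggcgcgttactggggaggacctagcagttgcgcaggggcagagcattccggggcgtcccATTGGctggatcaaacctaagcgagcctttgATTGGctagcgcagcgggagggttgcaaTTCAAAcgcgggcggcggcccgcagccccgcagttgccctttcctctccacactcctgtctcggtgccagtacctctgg
Cdc20, minus strand, chr4:118437294-118437593: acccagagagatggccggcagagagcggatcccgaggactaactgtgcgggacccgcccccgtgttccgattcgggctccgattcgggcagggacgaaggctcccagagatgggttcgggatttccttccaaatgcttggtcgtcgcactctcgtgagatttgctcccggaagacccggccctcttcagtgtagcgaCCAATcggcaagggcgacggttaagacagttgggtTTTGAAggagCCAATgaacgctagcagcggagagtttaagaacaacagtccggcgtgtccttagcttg
Ube2s, minus strand, chr7:4812291-4812590: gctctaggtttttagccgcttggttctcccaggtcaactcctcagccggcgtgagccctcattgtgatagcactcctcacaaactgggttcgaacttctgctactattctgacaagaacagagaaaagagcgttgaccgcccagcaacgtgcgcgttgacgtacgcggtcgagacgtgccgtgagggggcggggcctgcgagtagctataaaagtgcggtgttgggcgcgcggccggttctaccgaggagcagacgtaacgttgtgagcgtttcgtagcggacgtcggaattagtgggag
The Ube2c window held TTTGAA at 1 position, which starts 29 bases before the start, and CCAAT at 6, of which 2 overlap each other. In the Cdc20 window there were 1 and 2 such matches. The Ube2s window had neither TTTGAA nor CCAAT, and variants of these letters were not searched. Of all promoter windows of that length, 17.9% held TTTGAA and 37.4% CCAAT. Among the 23 E2 genes with a window, TTTGAA was found in 3 (Ube2c, Ube2f and Ube2z), where 20.2% of all genes with a window held it. A match describes these letters and is not evidence of binding.

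Beyond Ube2c, the counts for cell 13 were near those of all rows. Of the 79, 16 were higher by 2 or more in cell 13 than the median of the other 14 cells, and 8 were lower, where 22.4% and 12% of all rows were. The median difference over the 79 was 0.35, and over all rows it was −7.39e-05. Cell 13 had the highest value of 6 genes (7.45% of all rows were highest there), while cell 3 had that of 12 (5.19%), cell 1 of 10 (7.27%) and cell 8 of 1 (4.08%). Those of cell 13 were Ube2c, Psma6, Psmc4, Psmd6, Psmd2 and Ube2l3. After Ube2c the largest excesses were those of Psmg3 (7.17, with a median of 1.89 in the others), Psmb9 (6.83 and 1.77) and Ube2e1 (6.58 and 1.59). Psmd5, Psme3, Psmd2, Ube2z, Psmd6, Psmd14, Ube2v2, Ube2f, Ube2e3, Psmd10 and Ube2g1 exceeded it by 2.02 to 3.98, and Psmc3ip by 4.41. All but Ube2c, Psmd6 and Psmd2 were within the range of the other cells. On the low side, Ube2a (0.29, with a median of 6.80 in the others), Psmg2 (0.19 and 5.11) and Psmb8 (0.14 and 4.86) were followed by Psmd9, Psmd1, Psmd13, Ube2m and 1 other E2 gene. Psmb8 and Psmb9, neighbours that both respond to interferon, thus went apart in this cell. They also went apart, with Psmb8 the higher, in cell 1 (6.76 and 0.00), cell 6 (6.33 and 0.00) and cell 7 (4.67 and 0.00).

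The 14 constitutive core genes had a median difference of −0.18 in cell 13 from the other cells, with single genes from −1.97 (Psmb5) to 1.90 (Psma6). Of 17 cap genes 3 were higher by 2 or more and 2 were lower, where 22.4% and 12% of all rows were. None of the 13 constitutive core genes with a median of 6 or more in the other cells, and none of 7 such 19S genes, was lower there by 2 or more, where 28.3% of all rows at that level were. Neither was any of the 14 constitutive core genes higher by 2 or more. The mitosis, stromal, mural and endothelial marker values given above differ in the same cell, and their part in these values was not tested.

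**Figure D5:**
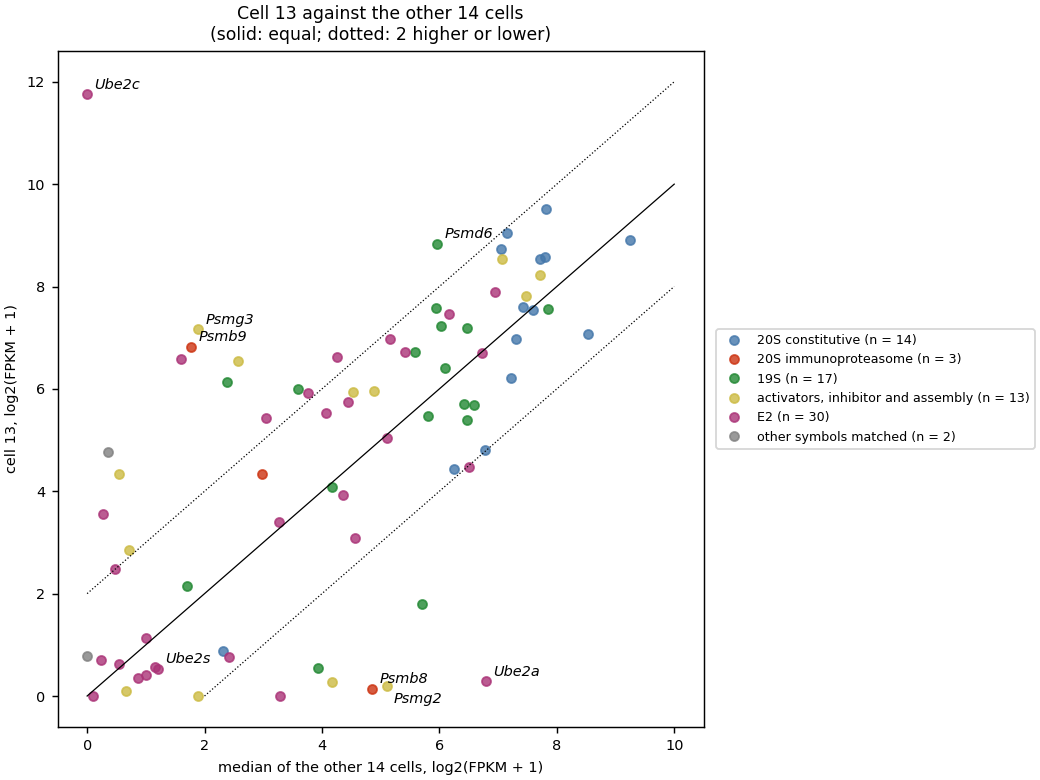
The 79 genes by their value in cell 13 (vertical axis) and the median of the other 14 cells (horizontal axis), both log2(FPKM + 1), coloured by group, with lines at equality (solid) and at 2 above and below (dotted). Ube2c (11.75) lies far above the lines, and the 14 constitutive 20S genes lie between the dotted lines.

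The ubiquitin genes and E1 enzymes that feed the E2 enzymes had unlike levels. All 4 ubiquitin genes were detected in every cell, Ubb with a median of 12.27 (10.77 to 12.98). Uba1, the main E1 enzyme, had a median of 3.62 and was detected in 13 cells, and Uba6, the alternative E1, in 3. Of 8 analysed E1 genes 1 was detected in all cells (12.1% of all rows were), Nae1, which activates NEDD8 (median 5.73).

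Of 15 cofactors of the proteasome with a row, 4 reached 1 FPKM in every cell, where 12.1% of all rows did. They were Pomp (median 8.88), the lid subunit Shfm1 (7.83), the ubiquitin receptor Adrm1 (6.41) and the unfolding enzyme Vcp (4.82). Adrm1 was highest in cell 13 (8.80). The de-ubiquitinases Usp14 and Uchl5 were detected in 8 and 12 cells with medians of 1.15 and 1.49. Nfe2l1, the factor that raises proteasome genes when the proteasome is inhibited, was detected in all 15 cells with a median of 3.78, and Nfe2l2, the factor of the oxidative stress response, in all with 5.14. In cells 10 and 15, where the core median was lowest, Nfe2l1 stood at 3.29 and 4.35. Nfe2l2 stood at 5.59 and 6.75 there, its highest value being that in cell 15.

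Nfe2l1 and Nfe2l2 bind the antioxidant response element, so the core promoters were searched for TGACNNNGC on both strands. Of the 11 constitutive core genes with a window 2 held it, the catalytic genes Psmb5 and Psmb6, where 14% of all genes with a window held it. Both windows are printed, 5′ to 3′ from RefSeq on GRCm38.p6, with the match in capitals.
Psmb5, minus strand, chr14:54617946-54618245: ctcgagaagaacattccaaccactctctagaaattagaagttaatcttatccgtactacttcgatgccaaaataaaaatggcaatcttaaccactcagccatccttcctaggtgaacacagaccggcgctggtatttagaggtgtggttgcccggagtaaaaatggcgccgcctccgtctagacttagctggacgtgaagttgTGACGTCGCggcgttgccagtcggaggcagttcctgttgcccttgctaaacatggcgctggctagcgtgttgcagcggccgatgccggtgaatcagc
Psmb6, plus strand, chr11:70525107-70525406: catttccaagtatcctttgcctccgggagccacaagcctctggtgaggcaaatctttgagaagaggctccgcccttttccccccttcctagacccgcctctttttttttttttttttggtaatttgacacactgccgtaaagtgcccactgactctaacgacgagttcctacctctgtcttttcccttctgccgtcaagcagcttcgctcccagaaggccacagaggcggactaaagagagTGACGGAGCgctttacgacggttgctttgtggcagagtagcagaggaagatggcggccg
The match started 47 bases before the start in Psmb5 and 9 bases before it in Psmb6. Both genes were low in cells 10 and 15 (Psmb5 4.09 and 3.94, Psmb6 4.95 and 3.93) and lowest in cell 6 (3.24 and 3.08). The part of the motif in these values was not tested.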

How the data were processed

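Single Tomato+ cells were profiled in 1 library per cell, per the labels' protocols, which name a 3′ kit (SMART-Seq v4 3′ DE) and, for the libraries, Nextera XT. TopHat2 and Cufflinks with build GRCm38 are named in the submitters' processing notes, without versions or settings. The authors deposited 1 table of 8446 rows, named as FPKM, whose values run from 0 to 13.69 and have nearly the same sorted values in each cell. They were therefore read as log2(FPKM + 1) values that the authors had quantile-normalized. The base of the logarithm was inferred from the values. The design had assumed linear FPKM, and no further logarithm was taken. A further 18 columns were empty.

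Columns were tied to cells by number. All 79 members matched GENCODE M21 by identifier, and 24 have an exon that overlaps another gene. Use of strand in counting is not stated. A RefSeq promoter window was found for 64. Detection was set at 1 FPKM, and a difference of 2 was named. Intervals are exact Clopper-Pearson 95% intervals over cells and cover counting error only. Correlations used genes detected in 8 or more cells. Named genes were the catalytic subunits, the 3 highest and lowest by median and the 5 widest ranges of each group, activators and assembly genes, a fixed set of E2 genes, and those past 2 in cell 13. Members and lists were chosen with earlier results of these data known. Values of a few single genes are not reported here. The cell differences and correlations were tested on simulated data. Python 3.11.15, pandas 2.3.3, numpy 2.4.6, scipy 1.17.1 and matplotlib 3.10.9 were used.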

Additional observations from a re-analysis of the deposited data

How the results depend on the processing

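The counts and levels were recomputed with detection at 5 and at 0.5 FPKM, without cell 13, without cells 1, 11 and 14, on ranks within each cell, and with the length multiplied back. The number of genes detected in all cells depended on the threshold: at 5 FPKM it was 3 for the 19S and 3 for the E2 genes, where 1 FPKM gave 6 and 7, and at 0.5 FPKM it was 11 for the E2 genes. With the length multiplied back, the level of the 17 core genes was 6.06, where the deposited values gave 7.19. All other counts stayed within 1.5 times and all other levels within 1 SD between cells. For the counts of low core genes in cells 10 and 15 this says little, since the detection threshold does not enter them, ranks restate the values, and a gene's length is the same in every cell. Without cell 13 the results on that cell have no value. The core correlation of 0.127, recomputed in ways chosen after seeing the data, ranged from 0.0523 without cells 10 and 15 to 0.145 without cell 13. No paired analysis was possible because there is 1 group. A low value of a gene in 1 cell cannot be told from a failure to capture its transcript, and read depth is unknown.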
